A study of Mus musculus with 98 samples.

Results

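Virma, the large scaffold subunit of the m6A writer complex, was knocked down with siRNA in mouse diffTBLC, that is, TBLC (totipotent blastomere-like cells) kept for 3 days in the medium labelled SLM. The comparison takes 2 siVirma and 2 siNC libraries, 4 of the 98 samples of the series, chosen by their labels and normalized within their own count table. That table also holds 2 libraries of siMettl3, made against the catalytic subunit of the same complex. All 3 groups share cell type and medium and differ in the siRNA alone, as far as the labels say. The number of siRNAs, their dose and the time after transfection are not given in the sources used here. A second pair of groups, siVirma and siNC1 in the same cells at 0 h of an actinomycin D course (2 libraries each), shares no library with the first. CD140+ cells (PrE-T) and CD140- cells (EPI-T), taken from the same culture with 2 libraries each, served to say where a transcript is normally found.

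N6-methyladenosine (m6A) is put on nascent mRNA by the METTL3 and METTL14 pair, which VIRMA, WTAP, ZC3H13, HAKAI (Cbll1) and RBM15 hold together and steer to particular sites. The mark is read by YTH proteins, of which YTHDF2 speeds decay, and by IGF2BP proteins, which are known to stabilize transcripts. Primitive endoderm (PrE) is the layer of the blastocyst that GATA6 specifies beside the NANOG-positive epiblast, and it goes on to secrete basement membrane and to take up material from its surroundings as visceral and parietal endoderm.

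The steady-state libraries held 3968442 to 4750020 counts, with scaling factors from 0.998 to 1.002 and mitochondrial shares from 2.81% to 3.11%. Replicates differed by more than counting noise (chi-square per degree of freedom 1.53 to 1.62). Nothing in the labels says that replicates came from separate cultures, so a p-value here speaks to the spread of these libraries alone, which may be technical. Levels are CPM, the counts of a gene scaled to the size of its library, and are compared within a gene only. Changes are log2 siVirma minus siNC ± standard error of the fit. Each adjusted p is that of edgeR's quasi-likelihood test with Benjamini-Hochberg adjustment over all genes tested, and the threshold is 0.05.

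Promoter sequence is shown for 3 of the endoderm genes that fell, because GATA4 and GATA6 fell with them and GATA factors are known to bind the letters AGATAA. Of 33 members of the PrE factor, surface marker, basement membrane and endocytosis lists that fell, 23 have a promoter in the RefSeq table (GRCm38.p6), and the 250 bases before the start of each were searched for AGATAA on both strands. It was found in 2, Hnf4a (chr2:163506607-163506856, plus strand) at position -52 from the start and Dpp4 (chr2:62412232-62412481, minus strand) at position -32. Pdgfra (chr5:75152001-75152250, plus strand) is given as a member without it. The sequences run 5′ to 3′ and capitals mark AGATAA.
Hnf4a: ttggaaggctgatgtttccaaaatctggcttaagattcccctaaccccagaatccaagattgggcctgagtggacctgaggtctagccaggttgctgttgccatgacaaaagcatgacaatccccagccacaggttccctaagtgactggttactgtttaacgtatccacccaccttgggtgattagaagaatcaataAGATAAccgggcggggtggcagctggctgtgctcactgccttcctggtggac
Dpp4: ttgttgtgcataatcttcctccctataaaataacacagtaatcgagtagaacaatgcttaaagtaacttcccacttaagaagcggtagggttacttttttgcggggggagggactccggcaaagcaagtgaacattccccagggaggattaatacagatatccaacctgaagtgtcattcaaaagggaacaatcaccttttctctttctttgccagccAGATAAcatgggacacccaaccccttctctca
Pdgfra: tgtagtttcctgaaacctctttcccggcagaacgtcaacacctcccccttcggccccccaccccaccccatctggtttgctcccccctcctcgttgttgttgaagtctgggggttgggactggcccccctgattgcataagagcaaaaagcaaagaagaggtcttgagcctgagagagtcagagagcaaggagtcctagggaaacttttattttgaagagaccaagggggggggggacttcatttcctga
AGATAA or its reverse complement stood in 8.22% of the 353 promoters of genes that fell, 4.83% of the 331 of genes that rose, 5.39% of the 9697 of all tested genes and 10.3% of the 27025 in the table. A match in these letters is a description of the window and not a binding site.

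Virma itself was lower in the libraries labelled siVirma, at 122 and 115 CPM in siNC and 87.1 and 80.96 CPM in siVirma. The siMettl3 libraries, at 124 and 122 CPM, lay with the controls. The groups do not overlap, and the siVirma mean was 0.709 of the siNC mean (-0.50 ± 0.085, adjusted p = 1.88e-06, and adjusted p = 1.31e-07 against siMettl3). Its partners in the complex moved less. Wtap, which brings the catalytic pair to nuclear speckles, measured 102 and 108 CPM in siNC and 125 and 134 CPM in siVirma and rose (0.30 ± 0.080, adjusted p = 0.00506), a call lost with DESeq2. Mettl3, the catalytic subunit, measured 31.2 and 29.7 CPM in siNC and 33.3 and 31.01 CPM in siVirma (0.079 ± 0.15, adjusted p = 0.842), so that its groups overlap. Mettl14 (0.17 ± 0.14) and Zc3h13 (0.10 ± 0.079) did not pass the test either. Of the 12 genes of the writer list, 1 rose, Wtap, and 1 fell, the target Virma. Over all genes tested 3.48% rose and 3.63% fell. Both demethylases, Fto (0.039 ± 0.10) and Alkbh5 (0.041 ± 0.067), missed the threshold. Among 14 readers 2 rose, Igf2bp1 (0.14 ± 0.033, adjusted p = 9.49e-04) and Hnrnpa2b1 (0.12 ± 0.028, adjusted p = 0.00114), while Igf2bp3 (-0.040 ± 0.090) and Ythdf2 (0.16 ± 0.070) did not pass.

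Over all 12141 genes tested, 863 (7.11%) passed the threshold in siVirma against siNC, of which 422 (3.48%) rose and 441 (3.63%) fell. Counts of every gene list against siNC are to be read beside these shares. The changes were small for most of them. The median was 0.31 for genes that rose and -0.43 for genes that fell, and 29 rose and 28 fell by at least 2-fold. DESeq2 called 319 genes, all of them among the 863. Fewer genes were called when 1 library was left out, and not all of those were among the 863. Without siVirma replicate 1, 1 of the 863 changed sign.

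Of 148 genes past the threshold that the naming rule gives, 75 kept the call under every alternative run and 73 lost it under 1 or more, 51 of them with DESeq2; none of the 148 changed sign. Among genes given below as changed, DESeq2 did not call Klf4, Dpp4, P4ha1, Plod3, Col18a1, Lin28a, Dppa5a, Tfcp2l1, Pou3f1, Nodal, Lefty2, Lgr4, Apc, Fgf15, Egr1, Spry2, Fos, Tpi1, Peg3, Mest, Plagl1, Tet2, Slc7a5, Dcp2, Zfp36l1, Cpsf2, Cyp51, Col5a2, Krt8, Tead4, Nes, Pcbd1 and Xlr5a. Nor did it call Cdkn1a, Frem2, H4c8, Eva1b, Trim12c, Aff3, Macrod2, Dzip1l and Gprc5b. Leaving out 1 library ended the call of Nid2, Stra6, Pdzd3, Tdh, Lef1, Dnmt3b, Egln3, Vegfa, Slc2a3, Gapdh, Ldha, Phlda2, Slc38a4, Col1a1, Hnf4a, Mmp3 and Rpl13a, which DESeq2 did call.

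**Figure D1:**
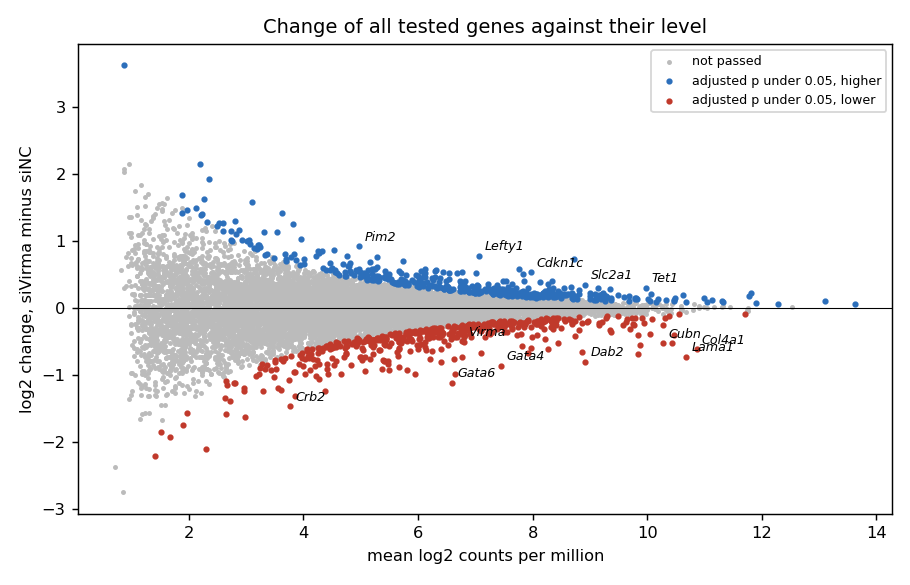
Each point is 1 of 12141 tested genes, with its mean log2 CPM over the 6 steady-state libraries on the horizontal axis and its log2 change, siVirma minus siNC, on the vertical axis. The 441 genes that fell (red) include abundant basement membrane and endocytosis genes at the right, such as Lama1 (-0.72) and Dab2 (-0.80), and the largest changes lie among genes of low level.

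Of 19 transcription factors of PrE tested, 10 fell, 0 rose and 9 did not pass, with a median of -0.61 against 0.0019 for all genes, and their summed level went from 1160 to 1161 CPM in siNC to 723 to 750.4 CPM in siVirma. Gata6, which specifies PrE, measured 125 and 128 CPM in siNC and 55.03 and 61.8 CPM in siVirma, with 106 and 92.2 CPM in siMettl3. Its level in both siVirma libraries was below every other library (-1.11 ± 0.093, adjusted p = 5.90e-25). Gata4, which acts with Gata6 in early endoderm, measured 220.3 and 223 CPM in siNC and 125 and 119.5 CPM in siVirma, with 176 and 168 CPM in siMettl3 (-0.86 ± 0.067, adjusted p = 3.29e-28). Sox17, needed to keep endoderm identity, measured 43.3 and 43.4 CPM in siNC and 19.9 and 25.1 CPM in siVirma (-0.94 ± 0.15, adjusted p = 2.15e-07). Its close relative Sox7 measured 80.7 and 78.5 CPM in siNC and 38.4 and 41.9 CPM in siVirma (-0.99 ± 0.11, adjusted p = 1.05e-13). In each of these 4 genes the siVirma and siNC libraries are well apart and the siMettl3 libraries lie between them. In bulk RNA, fewer PrE cells and less of these transcripts per cell cannot be told apart.

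Further factors of the endoderm network followed. Hnf4a, which drives the metabolic genes of visceral endoderm, measured 32.03 and 28.2 CPM in siNC and 14.1 and 20.6 CPM in siVirma (-0.79 ± 0.17), and its call was lost without siVirma replicate 1. Foxq1, a forkhead factor, measured 90.7 and 92.6 CPM in siNC and 53.01 and 64.9 CPM in siVirma (-0.63 ± 0.10), and Creb3l2, a membrane-bound factor of the secretory pathway, 76.4 and 76.4 CPM in siNC and 50.7 and 54.4 CPM in siVirma (-0.54 ± 0.11). Tbx3 (-0.67 ± 0.075) and Klf4 (-0.29 ± 0.10) fell too; both are also known from naive pluripotency and stand in that list too. Adjusted p-values of the 10 ran from 3.29e-28 for Gata4 to 0.0424 for Klf4. Under the alternatives run, 8 to 10 of the 19 fell and none rose.

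**Figure D2:**
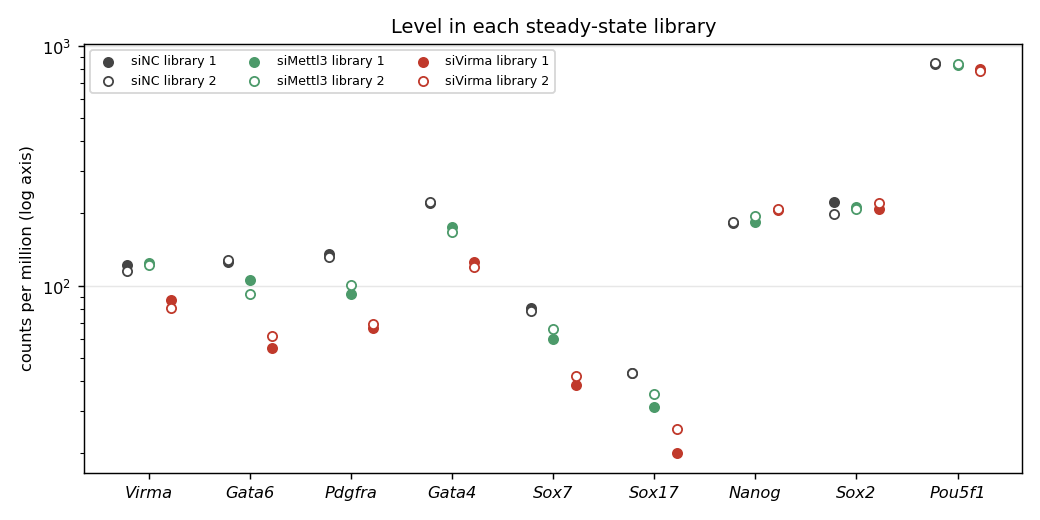
Each point is 1 library, with CPM on a log axis, for Virma, 5 PrE genes and 3 pluripotency factors; colour gives the siRNA and filling the replicate. For Gata6, Pdgfra, Gata4, Sox7 and Sox17 both siVirma libraries lie lowest, siMettl3 in the middle and siNC highest, whereas Nanog, Sox2 and Pou5f1 differ little.

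Among receptors and surface proteins used to mark PrE, 3 of 11 fell and 0 rose. Pdgfra, the receptor that carries the survival signal of PrE and the antigen CD140a, measured 136 and 131 CPM in siNC and 66.4 and 69.1 CPM in siVirma, with 91.9 and 100.2 CPM in siMettl3. All siVirma libraries are below all others (-0.98 ± 0.089, adjusted p = 1.48e-21). Podxl, a sialomucin of the apical surface, measured 352 and 394 CPM in siNC and 246 and 241 CPM in siVirma (-0.62 ± 0.051), and Dpp4, a surface peptidase, 51.03 and 45.9 CPM in siNC and 35.8 and 32.9 CPM in siVirma (-0.50 ± 0.13, adjusted p = 0.00628). Lifr, the LIF receptor, did not pass (-0.18 ± 0.063, adjusted p = 0.0694).

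Most of the basement membrane genes fell. Of 20 tested, 12 fell and 3 rose (median -0.30), and their summed level went from 14256 to 14315 CPM in siNC to 10720 to 10723 CPM in siVirma. Lama1, the laminin chain of the embryonic basement membrane, measured 1950.2 and 2004 CPM in siNC and 1201 and 1197 CPM in siVirma (-0.72 ± 0.028, adjusted p = 2.79e-80). Its partner chain Lamb1 measured 1079.5 and 1112 CPM in siNC and 697 and 669 CPM in siVirma (-0.68 ± 0.033), and Lamc1, which completes the trimer, 1607 and 1598 CPM in siNC and 1206 and 1217 CPM in siVirma (-0.40 ± 0.028). The collagen IV genes Col4a1 (2191 and 2231 CPM in siNC and 1455 and 1432 CPM in siVirma; -0.62 ± 0.026) and Col4a2 (1103 and 1104 CPM in siNC and 749 and 766 CPM in siVirma; -0.54 ± 0.033) fell by like amounts. So did the proteoglycan Hspg2 (-0.52 ± 0.029), the collagen binder Sparc (-0.40 ± 0.033) and the laminin linker Nid1 (-0.36 ± 0.064).

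Enzymes and a chaperone that mature collagen fell as well, among them P4ha2 (-0.73 ± 0.085), Serpinh1 (-0.32 ± 0.043), Plod3 (-0.27 ± 0.078) and P4ha1 (-0.26 ± 0.080). The 3 genes that rose were other members of the same families. Lama5, a laminin chain with a wide distribution in epithelia, measured 326 and 325 CPM in siNC and 400.3 and 378 CPM in siVirma (0.26 ± 0.047, adjusted p = 9.70e-06). Nid2 (0.22 ± 0.045) and Col18a1 (0.19 ± 0.046) rose by smaller amounts. In the CD140 fractions Lama5 and Col18a1 were lower in PrE-T than in EPI-T (log2 -0.49 and -2.21), whereas Lama1 and Col4a1 were higher there (log2 5.84 and 6.36). The value of Nid2, which also rose, is not given here.

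The endocytic machinery of visceral endoderm fell in 8 of 11 genes, with 0 that rose (median -0.43). Dab2, the adaptor that couples receptors to clathrin, measured 576 and 613 CPM in siNC and 331 and 352 CPM in siVirma (-0.80 ± 0.043, adjusted p = 4.02e-51). The multiligand receptors Cubn (1451 and 1454 CPM in siNC and 1007 and 1012 CPM in siVirma; -0.53 ± 0.030) and Lrp2 (1212 and 1207 CPM in siNC and 942 and 919.7 CPM in siVirma; -0.38 ± 0.031) fell, as did Amn, the membrane partner of cubilin (46.5 and 40.6 CPM in siNC and 25.2 and 26.3 CPM in siVirma; -0.76 ± 0.15), and the receptor chaperone Lrpap1 (-0.46 ± 0.051). Lysosomal proteases Ctsl (-0.32 ± 0.037) and Lgmn (-0.43 ± 0.079) and the endosomal chloride transporter Clcn5 (-0.43 ± 0.088) make up the rest. This count was 8 under every alternative run.

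Of 7 apolipoprotein and carrier genes that could be tested, 1 fell, Apoe (427 and 408 CPM in siNC and 299.6 and 285 CPM in siVirma; -0.52 ± 0.048, adjusted p = 7.12e-21). Apob, the structural protein of lipoproteins, did not pass against siNC (11.7 and 10.9 CPM in siNC and 14.9 and 16.8 CPM in siVirma; 0.48 ± 0.23, adjusted p = 0.232). Among 13 parietal endoderm genes 6 fell and 0 rose, including Srgn (-0.56 ± 0.059), Vim (-0.36 ± 0.037), the parathyroid hormone receptor Pth1r (49.3 and 50.9 CPM in siNC and 25.2 and 32.9 CPM in siVirma; -0.78 ± 0.14) and the retinol transporter Stra6 (-1.22 ± 0.27); Sparc and Lamb1 stand in this list too.

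**Figure D3:**
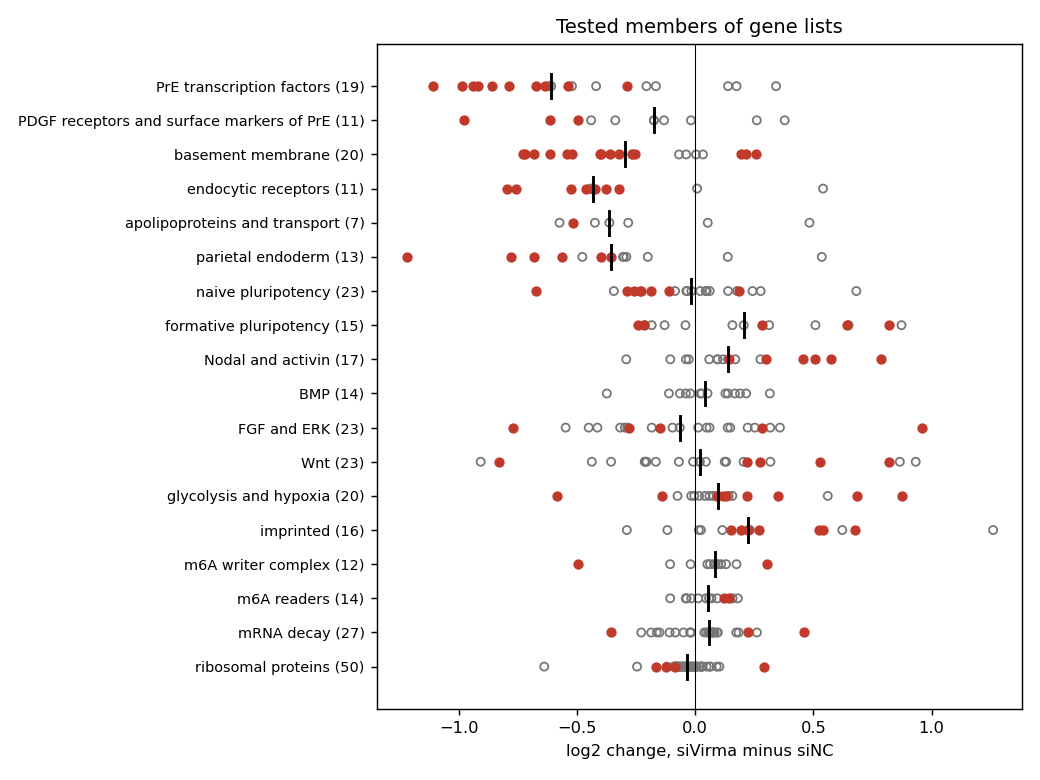
Each row is a gene list, with its number of tested members in parentheses, and each point is a member placed by its log2 change, siVirma minus siNC. Filled points have an adjusted p under 0.05 and the bar is the median, which is -0.61 for PrE transcription factors, -0.43 for endocytic receptors, 0.14 for Nodal and activin and -0.036 for ribosomal proteins.

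Among 23 naive pluripotency genes 7 fell and 1 rose, against 3.63% and 3.48% of all genes, and the median of the list was -0.017. Nanog, the factor of the epiblast, measured 183 and 184 CPM in siNC and 207 and 208 CPM in siVirma, and although its groups do not overlap it missed the threshold (0.18 ± 0.062, adjusted p = 0.0573). Sox2 (224 and 199.6 CPM in siNC and 208 and 221 CPM in siVirma; 0.021 ± 0.059) and Pou5f1 (839.8 and 846 CPM in siNC and 800.2 and 788 CPM in siVirma; -0.086 ± 0.034, adjusted p = 0.11) did not pass. Those that fell are Tbx3 and Klf4, named above, Klf5 (838 and 811 CPM in siNC and 679 and 700.0 CPM in siVirma; -0.26 ± 0.035), Sall4 (-0.23 ± 0.045), Tdh (-0.23 ± 0.054), Lin28a (-0.19 ± 0.049) and Dppa5a (-0.11 ± 0.038), and Tfcp2l1 rose (0.19 ± 0.063). The count that fell was 3 without siNC replicate 1 and 4 both without siVirma replicate 2 and with DESeq2. Of 15 formative genes 3 rose, Etv5 (0.28 ± 0.050), Lef1 (0.82 ± 0.19) and Pou3f1 (0.64 ± 0.21), and 2 fell, Dnmt3l (-0.24 ± 0.048) and Dnmt3b (-0.22 ± 0.045).

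Nodal signalling keeps the epiblast undifferentiated and patterns the endoderm beside it. Of 17 transcripts of the Nodal and activin list 6 rose, 0 fell and 11 did not pass (median 0.14). Over all genes 3.48% rose and 3.63% fell. Those that rose include inhibitors of the pathway as well as its ligand, and its activity was not measured. Lefty1, a secreted Nodal inhibitor and itself a target of the pathway, measured 104 and 100.4 CPM in siNC and 166 and 187 CPM in siVirma, with 115 and 134 CPM in siMettl3 (0.79 ± 0.075, adjusted p = 7.89e-20). The ligand Nodal measured 35.2 and 42.5 CPM in siNC and 52.5 and 54.2 CPM in siVirma (0.46 ± 0.13, adjusted p = 0.00974). Its co-receptor Tdgf1 measured 502 and 516 CPM in siNC and 628 and 623 CPM in siVirma (0.30 ± 0.039), and the SMAD-binding repressor Skil 189 and 190.1 CPM in siNC and 272 and 266 CPM in siVirma (0.50 ± 0.057). Lefty2 (0.14 ± 0.043) rose too. With DESeq2 or without siNC replicate 1, 3 of the 17 rose. In the BMP list 0 of 14 genes passed in edgeR or DESeq2, and 2 had an unadjusted p under 0.05 in edgeR. The closest in the list was Bmpr2 (0.19 ± 0.074, adjusted p = 0.105). Bmp6 and the BMP modulator Bmper do not stand in this list, and both fell, as given below.

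In the Wnt list 4 of 23 rose and 1 fell, where 3.48% of all genes rose and 3.63% fell. With DESeq2, 2 of 26 rose and 1 fell. The receptor Fzd7 measured 78.8 and 79.2 CPM in siNC and 105 and 122 CPM in siVirma (0.53 ± 0.090), and Dkk1, a secreted Wnt inhibitor made by visceral endoderm, fell from 49.96 and 58.9 to 27.5 and 33.6 CPM (-0.83 ± 0.13). Lef1, Lgr4 (0.27 ± 0.072) and Apc (0.22 ± 0.059) also rose. In the FGF and ERK list 2 of 23 rose, Etv5 and Fgf15, and 3 fell, Egr1 (-0.28 ± 0.081), Spry2 (-0.15 ± 0.048) and Fos (-0.77 ± 0.26). With DESeq2, 1 of 24 in this list rose and 0 fell.

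The glucose and hypoxia list held 7 genes that rose and 2 that fell out of 20. The glucose transporter Slc2a1 measured 443 and 439 CPM in siNC and 558 and 568 CPM in siVirma (0.35 ± 0.041, adjusted p = 1.28e-13), the prolyl hydroxylase Egln3 21.6 and 14.3 CPM in siNC and 32.1 and 33.6 CPM in siVirma (0.87 ± 0.17) and the mitophagy receptor Bnip3 30.1 and 27.4 CPM in siNC and 50.99 and 41.7 CPM in siVirma (0.69 ± 0.14). Enzymes of glycolysis rose by small amounts, from 0.092 for Gapdh to 0.22 for Tpi1, with Pkm (0.12) and Ldha (0.13) between them. Vegfa (56.8 and 62.3 CPM in siNC and 33.8 and 45.2 CPM in siVirma; -0.59 ± 0.12) and Slc2a3 (-0.14 ± 0.033) fell. Without siNC replicate 2 the number that rose was 3.

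Of 16 imprinted genes tested 7 rose and 0 fell (median 0.22). Cdkn1c, a growth-restraining inhibitor of cyclin-dependent kinases, measured 213 and 209 CPM in siNC and 305 and 308 CPM in siVirma (0.54 ± 0.055, adjusted p = 9.01e-18), Phlda2 21.6 and 22.7 CPM in siNC and 33.1 and 37.6 CPM in siVirma (0.68 ± 0.16) and Peg10 1876 and 1892 CPM in siNC and 2142 and 2039 CPM in siVirma (0.15 ± 0.026). Slc38a4, Peg3, Mest and Plagl1 rose by 0.20 to 0.52. The number was 3 without siVirma replicate 1 and 4 both without siNC replicate 2 and with DESeq2. In the DNA methylation list Tet1, which oxidizes methylcytosine, rose (858 and 903 CPM in siNC and 1102 and 1075 CPM in siVirma; 0.31 ± 0.032), while Tet2 (-0.26 ± 0.071), Dnmt3l and Dnmt3b fell.

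For the lists of stress, growth and RNA metabolism the counts are to be read against the 3.48% of all genes that rose and the 3.63% that fell. In the ATF4 list 3 of 21 rose, led by Ddit4, an inhibitor of mTORC1 (31.6 and 29.3 CPM in siNC and 51.2 and 52.3 CPM in siVirma; 0.77 ± 0.14), then Psat1 (0.29 ± 0.063) and Slc7a5 (0.17 ± 0.050). Of 22 p53 targets 1 rose and 2 fell, and of 22 cell cycle genes 4 rose and 1 fell (2 rose with DESeq2 or without siNC replicate 1). Among 13 interferon genes and 19 splicing regulators (SR proteins and their kinases) 0 passed in edgeR or DESeq2, with 3 and 4 at an unadjusted p under 0.05 in edgeR. In the decay list 2 of 27 rose, Tut4 (0.46 ± 0.10) and Dcp2 (0.22 ± 0.057), and Zfp36l1, which brings the deadenylase to AU-rich transcripts, fell (-0.36 ± 0.084). Of 20 polyadenylation factors 1 rose, Cpsf2 (0.29 ± 0.071). Of 50 ribosomal protein genes 1 rose and 3 fell (median -0.036), and of 22 cholesterol genes 1 fell, Cyp51 (-0.28 ± 0.079). Of the 12 mitochondrial genes 4 rose and 2 fell, and without siNC replicate 1 none rose in edgeR (7 of 12 had an unadjusted p under 0.05). mt-Nd6, the one protein gene on the light strand, measured 632 and 616 CPM in siNC and 441 and 351 CPM in siVirma with 378 and 353 CPM in siMettl3 (-0.66 ± 0.043).

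Markers of other cell types also held calls, and their summed levels moved. Of 17 fibroblast and feeder genes 3 fell, Fbln2 (-0.31 ± 0.062), Col1a1 (-0.29 ± 0.062) and Col5a2 (-0.29 ± 0.084), and the summed level went from 1255 to 1289 CPM in siNC to 1112 to 1139 CPM in siVirma; 1 fell without siNC replicate 1. Of 10 trophectoderm genes 2 fell, Krt8 (-0.45 ± 0.13) and Tead4 (-0.48 ± 0.14), and their sum went from 151 to 157 CPM to 137 to 141 CPM. Of 15 2-cell genes 1 rose, Zscan4d (32.2 and 33.1 CPM in siNC and 49.7 and 48.8 CPM in siVirma; 0.59 ± 0.14, adjusted p = 7.92e-04), a gene with close copies among which shared reads could be split. The median of the 2-cell list was 0.36, and its sum went from 155 to 163 CPM in siNC to 204 to 211 CPM in siVirma, without overlap. Of 6 neural genes 1 rose, Nes (0.43 ± 0.12), with a median of 0.38 and a sum of 96.2 to 101 CPM in siNC and 112 to 116 CPM in siVirma, and of 4 mesoderm genes 0 passed in edgeR or DESeq2, with 0 at an unadjusted p under 0.05 in edgeR. Neurog2 had no count in any of the 6 libraries. The part of other cell types in the changes above was not tested.

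By size alone, the largest falls among genes whose mean log2 CPM was 3 or more were led by Crb2, an apical polarity protein (15.6 and 20.2 CPM in siNC and 6.06 and 6.87 CPM in siVirma; -1.46 ± 0.25). The signalling proteins Bmp6 (16.01 and 23.6 CPM in siNC and 9.59 and 6.39 CPM in siVirma; -1.31 ± 0.24) and Bmper, a secreted BMP modulator (26.9 and 25.5 CPM in siNC and 10.1 and 12.1 CPM in siVirma; -1.23 ± 0.20), came next with the cadherin Cdh6 (-1.24 ± 0.29), followed by Stra6, Scube2 (-1.19 ± 0.26), Gata6, Pdzd3 (-1.06 ± 0.24), Fbp2 (-1.06 ± 0.20), Pcbd1, Nrg2 (-1.01 ± 0.20), Xlr5a, Rhpn1 (-0.99 ± 0.17), Sox7 and Bend5 (-0.99 ± 0.19). In the CD140 fractions 14 of these 15 were higher in PrE-T, by a log2 difference of 3.93 (Bend5) to 11.92 (Stra6), and Xlr5a was not (log2 -1.69). At least 2-fold higher in PrE-T, with an adjusted p under 0.05 in edgeR, were 18.9% of all genes tested and 65.3% of the 441 that fell.

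Several of the largest rises were of low level. Stk26, a serine/threonine kinase, measured 4.91 and 3.16 CPM in siNC and 10.3 and 13.97 CPM in siVirma (1.59 ± 0.31) and Hdx, a homeobox gene, 7.69 and 5.68 CPM in siNC and 19.2 and 16.6 CPM in siVirma (1.41 ± 0.25). The kinase Pim2 (22.2 and 24.2 CPM in siNC and 46.2 and 42.1 CPM in siVirma; 0.93 ± 0.15) kept its call under every alternative run, as did Stk26 and Hdx. Frem2, H4c8, Eva1b, Fgf15, Trim12c, Aff3, Macrod2, Dzip1l and Gprc5b rose by 0.89 to 1.13, and all 9 lost the call with DESeq2. Mmp3, a secreted protease (14.3 and 9.26 CPM in siNC and 24.99 and 23.2 CPM in siVirma; 1.03 ± 0.21), lost it without siNC replicate 2.

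To place the changes among the 2 cell states of the culture, genes were ordered by their difference between CD140+ and CD140- cells, a measure from libraries the knockdown comparison does not use. Of 14373 genes tested there, 2675 (18.6%) were at least 2-fold higher in PrE-T and 2277 (15.8%) in EPI-T with an adjusted p under 0.05. Of the PrE-T genes, 2295 were tested in the knockdown, and 288 fell (12.5%) and 8 rose (0.349%), with a median of -0.18. Of the 1816 EPI-T genes tested, 164 rose (9.03%) and 27 fell (1.49%), with a median of 0.11. Seen from the other side, 65.3% of the 441 genes that fell were PrE-T genes, against 18.9% of all genes tested, and 39.0% of the 422 that rose were EPI-T genes, against 15.0%. With a 4-fold limit in place of 2-fold, 189 of 1015 PrE-T genes fell and 64 of 735 EPI-T genes rose.

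**Figure D4:**
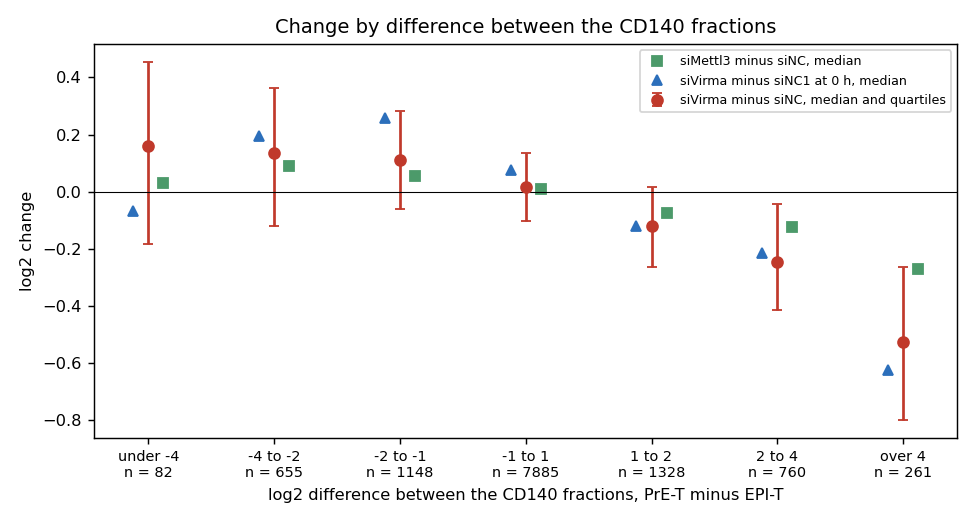
Genes are binned by their log2 difference PrE-T minus EPI-T on the horizontal axis, with the number of genes under each bin, and the vertical axis is the log2 change. Circles with bars are the median and quartiles of siVirma minus siNC, which go from 0.16 in the lowest bin to -0.53 in the highest; squares (siMettl3) and triangles (0 h) are medians.

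The shift was graded. The median change of siVirma minus siNC was 0.017 among 7885 genes within 2-fold between the fractions, then -0.12, -0.25 and -0.53 in the bins of rising PrE-T excess, and the siMettl3 medians in the same bins were -0.074, -0.13 and -0.27. siVirma and siMettl3 share their siNC libraries, so these values are given side by side only.

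Compared with the immunoprecipitations of the readers, the changed genes were less one-sided. Of 12904 genes tested, 1314 (10.2%) were at least 2-fold enriched with Igf2bp3, and of 12364, 3073 (24.9%) with Ythdf2. Of 1140 Igf2bp3 genes tested in the knockdown 62 fell (5.44%) and 48 rose (4.21%), with a median of -0.00034. Of 2802 Ythdf2 genes 84 fell (3.00%) and 133 rose (4.75%), with a median of 0.026. Among all genes tested 3.63% fell and 3.48% rose. Seen from the other side, 14.2% of genes that fell and 11.5% of those that rose were Igf2bp3 genes, against 9.57% of all. For Ythdf2 genes these shares were 20% and 32.0%, against 24.4% of all. Gata6 transcripts were enriched 0.36 (log2) with Igf2bp3 and 2.07 with Ythdf2, and Virma 0.43 and 2.05.

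The test of siVirma against siMettl3 asks where the knockdowns differ. In it 134 genes (1.1%) were higher and 161 (1.33%) lower in siVirma, and 105 genes (0.865%) passed in siMettl3 against siNC. Mettl3 itself measured 31.2 and 29.7 CPM in siNC and 26.4 and 27.5 CPM in siMettl3 (log2 siMettl3 minus siNC -0.18, adjusted p = 0.771), so a lower level of the target was not shown in the libraries labelled siMettl3. Gata6 (-0.76 ± 0.10, adjusted p = 4.66e-11), Gata4 (-0.49 ± 0.070), Sox7 (-0.65 ± 0.12), Pdgfra (-0.50 ± 0.094) and Sox17 (-0.55 ± 0.16, adjusted p = 0.0283) were lower in siVirma than in siMettl3. Of the 19 PrE factors 7 were lower, of the 20 basement membrane genes 10 lower and 2 higher, and of the 11 endocytosis genes 6 lower.

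Against siNC alone, siMettl3 had Gata6 at -0.35 (adjusted p = 0.00714), Gata4 at -0.37 (adjusted p = 5.36e-06) and Pdgfra at -0.47 (adjusted p = 9.58e-06), while the values for Sox17 (-0.39, adjusted p = 0.202) and for Sox7 (-0.34, adjusted p = 0.094) missed the threshold. Among the largest differences in siVirma against siMettl3 were, upward, Mmp3 (1.21 ± 0.21), H4c8 (1.21 ± 0.30) and Apob (1.09 ± 0.25) and, downward, Stra6 (-1.19 ± 0.27), Crb2 (-1.15 ± 0.26), Bmper (-1.01 ± 0.20), Nr1d1 (-0.91 ± 0.21) and Hdac7 (-0.88 ± 0.25).

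Libraries taken at 0 h of the actinomycin D course repeat the knockdown with other libraries. There 8242 of 13664 genes (60.3%) passed, 4520 (33.1%) higher and 3722 (27.2%) lower. Against so high a share a call says little by itself. The arms also differ as libraries: the scaling factors were 0.955 and 0.972 in siNC1 and 1.10 and 1.11 in siVirma, the mitochondrial share was 1.38% and 1.53% against 2.14% in both, and all 50 ribosomal protein genes were lower in siVirma. The siNC1 libraries at 0 h also stand apart from those at 1 h, whose scaling factors were 1.10 and 1.09 and mitochondrial shares 2.23% and 2.22%, close to siVirma at 0 h. They lie nearer to siNC1 at 2 h, with factors of 0.964 and 0.948 and mitochondrial shares of 1.42% and 1.28%. Averaged over 1 to 3 h of the course, a reading added after the values at 0 h had been seen and which compares no 0 h library, 4845 genes (35.5%) were higher and 4924 (36%) lower, among them 47 of the 50 ribosomal protein genes as higher and 0 as lower. The comparison at 0 h and the slopes rest on these siNC1 libraries of 0 h. With library totals in place of scaling factors the calls were 6617 higher and 2282 lower. The part of these differences in the results below was not tested.

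Virma measured 40.7 and 41.7 CPM in siNC1 and 34.7 and 33.6 CPM in siVirma at 0 h (-0.27 ± 0.061, adjusted p = 3.15e-04). At 1 to 3 h it measured 50.5 to 63.1 CPM in the 6 siNC1 libraries and 24.5 to 31.02 CPM in the 6 siVirma libraries, and its average over those hours was -1.04. The difference of the target was thus smallest at 0 h, where the siNC1 libraries were lower than at any later hour. Gata6 measured 95.2 and 83.6 CPM in siNC1 and 36.3 and 35.3 CPM in siVirma (-1.32 ± 0.059), so that its groups are apart as they are at steady state. Sox17 (-1.41 ± 0.077), Sox7 (-1.17 ± 0.077), Pdgfra (-1.16 ± 0.068) and Gata4 (-0.96 ± 0.048) were lower too. Of the 19 PrE factors 14 were lower and 1 higher, of 20 basement membrane genes 11 lower and 5 higher, and of 11 endocytosis genes 10 lower and 0 higher. Of 12 PrE surface genes 4 were lower and 1 higher, with a median of 0.00024. Markers of other cell types moved at 0 h as well: of 17 fibroblast and feeder genes 8 were higher and 4 lower (median 0.55, against 0.052 for all genes), of 6 neural genes 4 higher and 1 lower (median 0.90), and of 19 2-cell genes 2 higher and 10 lower (median -0.56). Their part in the endoderm counts was not tested. In the average over 1 to 3 h, 14 of the 19 PrE factors, 15 of the 20 basement membrane genes and 9 of the 11 endocytosis genes were lower, and 1, 5 and 2 higher. Nanog was lower at 0 h (-0.20 ± 0.047, adjusted p = 4.93e-04), where it had missed the threshold at steady state, and Pou5f1 was lower (-0.58 ± 0.052).

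Of the 441 genes that fell at steady state 439 were tested at 0 h, and 317 were called lower there (72.2%) and 34 higher; these are 9.04% of the genes called lower at 0 h that both tables tested. Of the 421 tested genes that rose, 335 were called higher (79.6%, or 7.76% of those called higher at 0 h) and 30 lower. Across 12045 genes the changes of both experiments had a Pearson r of 0.344 and a Spearman rho of 0.351, as a description over genes, which are not independent. In the average over 1 to 3 h, 356 of the 439 genes that fell were lower, but of the 421 that rose 224 were higher and 149 lower. The 5 PrE genes named first stayed lower in that average, from -0.82 for Sox17 to -1.96 for Pdgfra. It was taken while transcription was blocked, so it joins the level at the start with the loss since. It is therefore not the same measure as a steady-state or 0 h level.

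**Figure D5:**
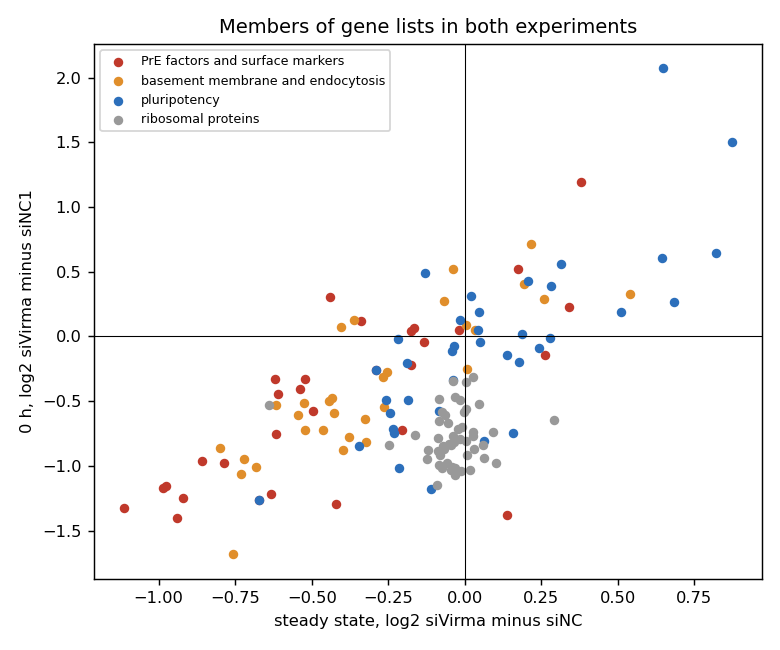
Each point is a list member, with its log2 change at steady state on the horizontal axis and at 0 h of the actinomycin D course on the vertical axis; Tbx3 and Klf4 belong to 2 lists and are drawn as pluripotency genes. PrE factors such as Gata6 (-1.11 and -1.32) lie low on both axes, and the ribosomal protein genes lie near 0 at steady state and low at 0 h.

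The actinomycin D course also gives the change per hour once transcription is blocked. The slope was higher in siVirma for 398 genes (2.91%) and lower for 823 (6.02%), but this count was 1 with library totals, 6 without a filter on low counts, 0 without 0 h (497 at an unadjusted p under 0.05) and 0 without replicate 1 or 2 (1109 and 1008 at an unadjusted p under 0.05), all in edgeR. No gene group is therefore read from it. Slope differences in log2 per hour were -0.072 ± 0.071 for Gata6 (adjusted p = 0.458), -0.12 ± 0.071 for Gata4 (adjusted p = 0.201), 0.21 ± 0.075 for Sox17 (adjusted p = 0.0686) and -0.24 ± 0.10 for Pdgfra (adjusted p = 0.0849), and none of these 4 passed.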

How the data were processed

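The authors deposited raw counts for each gene symbol. Per the submitters' processing notes the genome build was mm39 and the tools included STAR 2.7.11b, Subread, Trim Galore, FastQC 0.12.1 and DESeq2. Libraries were made with either of 2 kits and read on either of 2 instruments, and which served which library is not given in the sources used here, nor is the strand setting of the counting. TMM factors were computed within each table, and quasi-likelihood fits of edgeR 4.0.16 were run under R 4.3.3 (filterByExpr, Benjamini-Hochberg at 0.05): all 6 steady-state libraries in one fit, and all 16 of the actinomycin D table, with 11433895 to 21000573 counts, in another. Of 21812 symbols, 21144 matched the table of gene names given. CPM were scaled by the TMM factors. Promoters were read from RefSeq (GRCm38.p6), 1 entry a gene; no mm39 sequence or peak was used.

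Members and the 33 lists were chosen with earlier results of these data known. Named are 12 anchors, the 15 largest rises and falls whose mean log2 CPM was 3 or more and whose groups stayed apart (5 and 5 against siMettl3), up to 4 members of each list by adjusted p, and any member where a list's counts are given; a few of these are not reported here. Alternatives were DESeq2 1.42.0, RLE factors, library totals, no filter, a replicate block, fewer libraries in the fit and each library left out. No shared effect of the replicate number was seen (correlation of deviations over genes -0.032 to 0.016). That cannot show whether libraries were made in pairs. The edgeR fits of the steady-state and actinomycin D libraries were also run on counts simulated under the model that they assume. Such counts cannot show how far the real libraries depart from that model.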

Additional observations from a re-analysis of the deposited data

Results flagged for a closer look

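Some genes had both siVirma libraries on one side of the controls at steady state and on the other side at 0 h of the actinomycin D course. The difference between the experiments was not tested, since their tables were normalized separately, and each pair below gives log2 siVirma minus control at steady state and then at 0 h.

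Higher at steady state and lower at 0 h were Bst2 (0.36 ± 0.14 and -0.20 ± 0.056), Eva1b (1.01 ± 0.31 and -0.45 ± 0.12), H4c8 (1.02 ± 0.29 and -0.61 ± 0.41), Igf2bp1 (0.14 ± 0.033 and -0.39 ± 0.039), Lefty2 (0.14 ± 0.043 and -0.18 ± 0.042), Macrod2 (0.91 ± 0.29 and -0.19 ± 0.085), Nanog (0.18 ± 0.062 and -0.20 ± 0.047), Rpl13a (0.29 ± 0.069 and -0.65 ± 0.061) and Rsrp1 (0.19 ± 0.091 and -0.46 ± 0.043). Lower at steady state and higher at 0 h were Cdkn1a (-0.19 ± 0.064 and 0.18 ± 0.051), Cpsf1 (-0.13 ± 0.067 and 0.13 ± 0.046), Ddx58 (-0.24 ± 0.12 and 0.28 ± 0.10), Fbln2 (-0.31 ± 0.062 and 0.090 ± 0.065), Fos (-0.77 ± 0.26 and 0.46 ± 0.21), Nid1 (-0.36 ± 0.064 and 0.13 ± 0.061), Postn (-0.34 ± 0.15 and 0.93 ± 0.22), Sesn2 (-0.19 ± 0.083 and 0.12 ± 0.057), Tet2 (-0.26 ± 0.071 and 0.089 ± 0.076) and Vegfa (-0.59 ± 0.12 and 0.20 ± 0.074). Both changes passed the threshold in Cdkn1a, Eva1b, Igf2bp1, Lefty2, Rpl13a and Vegfa. The steady-state call of Cdkn1a was lost with DESeq2, with only the 4 libraries compared and without any 1 library. Those of Eva1b and Lefty2 were lost with DESeq2 and when some single libraries were left out. The call of Vegfa was lost without siVirma replicate 1 and that of Rpl13a without siNC replicate 1. Among the genes in which both changes passed, only Igf2bp1 kept its steady-state call under every alternative run. The scaling factors of the arms differ at 0 h and all 50 ribosomal protein genes were lower there, as given above, and the part of this in the pairs was not tested. In the average over 1 to 3 h, Bst2 (1.04), Eva1b (0.76), Macrod2 (0.44), Rpl13a (0.59), Igf2bp1 (0.081) and Rsrp1 (0.055) had the sign of steady state. So had Nid1 (-1.27), Tet2 (-1.15), Vegfa (-0.53), Ddx58 (-0.48), Fbln2 (-0.26), Cpsf1 (-0.13) and Fos (-0.13). H4c8, Lefty2, Nanog, Cdkn1a, Postn and Sesn2 had the sign of 0 h in that average.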

How the results depend on the processing

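For siVirma against siNC, RLE factors, library totals, no filter, only the 4 libraries compared and the replicate block (884 genes) left the count within 1.5 times of 863, DESeq2 called 319, and leaving out 1 library gave 495 to 606. For siVirma against siMettl3 (295 genes) DESeq2 called 90 and leaving out 1 library gave 120 to 209. For siMettl3 against siNC (105 genes) these were 53 and 41 to 49. At 0 h (8242 genes) the count stayed within 1.5 times under every alternative. The slope comparison (1221 genes) gave 1 with library totals, 6 without a filter, 406 with the replicate block, 0 without 0 h, 7973 from 3 h against 0 h only and 0 without either replicate. The cause of the moves was not tested, beyond the fewer libraries that leaving one out leaves; a lone library was then assumed to vary like the other groups. Of 198 genes followed, 5 changed sign under an alternative, and none of them had passed the threshold: Igf2bp3 (-0.17 to 0.072 when 1 library was left out), Sox2 (-0.061 to 0.11), Mttp (-0.80 to 0.082), Mesp2 (-0.53 to 0.73) and Kdr (-0.57 to 0.43, and -0.0019 with library totals, -0.0088 without a filter and -0.00070 with the replicate block). Changes of low genes are limited by depth. List counts under the alternatives were added after the data had been seen.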
